A study of Mus musculus with 77 samples.

Results

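The regions described here are 1008 bins of 80 kb that were replicated later, relative to the rest of the genome, in 8-cell than in 4-cell mouse SCNT embryos. In SCNT, or somatic cell nuclear transfer, the nucleus of a somatic cell replaces that of the oocyte. Single-cell replication profiling reads the DNA copy number of 1 cell and gives, for each bin, whether it had been replicated when the cell was taken. The 8-cell group holds 49 blastomeres of 12 embryos and the 4-cell group holds 28 blastomeres of 14 embryos, all of the BDF1 strain and all SCNT embryos grown in vitro in CZB medium. The donor cell of the nuclei is not given in the sources used here, and there was no group of fertilized embryos, so each value compares 2 stages of SCNT embryos only.

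The bins were chosen from these same profiles. Cells in mid-S phase had 30 to 70% of their called autosomal bins replicated, a percentage that the authors give for each cell as the Repliscore. This left 28 8-cell blastomeres (10 embryos) and 18 4-cell blastomeres (9 embryos). A bin was kept when it had a call in at least 20 of the 8-cell and 12 of the 4-cell mid-S cells, which held for 29620 of 30890 autosomal bins. The files hold 32973 bins with those of chromosome X. For each kept bin the percent of called mid-S cells in which it was replicated was taken at each stage, and the mean over kept bins of that stage was subtracted, 48.7% for 8-cell and 55.1% for 4-cell cells. Members are the kept bins for which the 8-cell minus the 4-cell value was -35 percentage points or less. They make up 3.4% of kept bins, and 519 kept bins, 1.75%, passed the same distance in the other direction. Because the mid-S values of the 2 stages chose the bins, all mid-S differences between the stages below are descriptions without a test.

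A cell copies its genome in a set order, so that each region has a time in S phase at which it is usually replicated. Regions rich in active genes tend to be copied early, and gene-poor regions at the nuclear periphery late. This order is not fully set up in the first cell cycles of the mouse embryo and becomes sharper as development goes on, and in SCNT embryos a somatic nucleus is brought into that programme.

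The 8-cell cells come in 2 sets by library title, DEP_01_162 and DEP_01_164, both of the later of 2 batches named in the authors' cell annotation. Of the 18 mid-S 4-cell cells, 8 cells of 4 embryos carry the same DEP titles and 10 cells of 5 embryos carry the title mEmb04C and form the earlier batch, which holds no 8-cell cell. The median Repliscore of mid-S cells was 49.5% at the 8-cell stage, against 57.3% at the 4-cell stage, and within the 4-cell stage it was 60.9% in DEP and 52.2% in mEmb04C cells. Autosomes of which at least 98% of called bins had 1 state were present in 4 of the mid-S 8-cell cells and in 2 of the mid-S 4-cell cells, these 2 from 1 embryo. Only calls were deposited, so the read depth of each cell is unknown and no counting interval is given. A median of 28 of 28 8-cell and 18 of 18 4-cell mid-S cells had a call at a member bin, with lowest values of 22 and 12. Missing calls came in runs. On chromosome 5, 16 of 18 4-cell cells were called at the members from 126400001 to 127840000. On chromosome 7, 24 of 28 8-cell cells were called at those from 37360001 to 38160000. The stage means subtracted were the same for all bins.

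Member bins were replicated in few 8-cell cells and in most 4-cell cells. On average a member was replicated in 20.3% of mid-S 8-cell cells (SD 12.9 over bins), with a median of 17.9% and a range of 0 to 57.7%. In mid-S 4-cell cells the average was 69.7% (SD 13.2 over bins), with a median of 70.6% and a range of 43.8 to 100%. After subtraction of the stage means the difference had a median of -40.9 points and reached -75.4 points. It was -40 or less in 579 members, -50 or less in 151 and -60 or less in 28.

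In 4-cell embryos these bins lay mostly in the middle to early part of the replication order. Of the 1008 members, 880 (87.3%) were above the 4-cell mean, against 53.0% of all kept bins. When kept bins were ranked by their 4-cell percent and divided into 4 groups of about equal size, 0 members lay in the latest group, 221 in the next, 674 in the one after it and 113 in the earliest. The choice itself keeps bins out of the latest group, since a bin that starts low cannot fall far. A cut on a difference of percents from few cells also favours bins with intermediate values, so this distribution is no measure of which bins tend to shift. A 4-cell percent of 90 or more was found in 52 members (5.16%), against 15.6% of kept bins. A 4-cell percent over 50 and under 90 was found in 834 members (82.7%) and in 37.9% of kept bins. Most members were therefore bins that 4-cell cells replicated often but not always.

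In 8-cell embryos the same bins were below the stage mean in 988 of 1008 cases, against 51.7% of kept bins, as the choice favours low 8-cell values. The 8-cell percent was 20 or less in 537 members (53.3%), against 33.5% of kept bins. It was 0 in 39 members, a value that 7.45% of kept bins had. In 20 members (1.98%, against 48.3% of kept bins) the bin was still replicated in at least 50% of 8-cell cells.

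The member bins with the largest differences were spread over several chromosomes. On chromosome 19, the bin from 7920001 to 8000000 (mm9) was replicated in 2 of 28 8-cell cells and in 16 of 18 4-cell cells, a difference of -75.4 points after subtraction of the stage means. On chromosome 5, the bin from 127600001 to 127680000 was replicated in 2 of 28 8-cell cells and 14 of 16 4-cell cells, a difference of -74.0 points. On chromosome 6, the bin from 124000001 to 124080000 was replicated in 1 of 28 8-cell cells and 15 of 18 4-cell cells, a difference of -73.4 points. The next were the bin of chromosome 12 from 12480001 to 12560000, with 2 of 28 8-cell and 15 of 18 4-cell cells, and that of chromosome 14 from 53200001 to 53280000, with 2 of 28 8-cell and 14 of 17 4-cell cells. In each of these 5 bins both 8-cell title sets were at 16.7% or less, and both 4-cell title sets were at 75% or more.

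The threshold cuts through a dense range of values. The 5 members just inside it had differences of -35.3 to -35.1 points, among them a bin of chromosome 7 from 38080001 to 38160000 with 2 of 24 8-cell and 9 of 18 4-cell cells. Just outside, 44 kept bins shared 1 value, -34.9 points, which is 4 of 28 8-cell and 10 of 18 4-cell cells. The first 5 of these by position lie on chromosome 1 and start at 10480001, 32640001, 40480001, 47120001 and 84160001. Between -40 and -35 points there were 429 bins, and between -35 and -30 points a further 641.

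The percent of member bins replicated in a cell depended on how far that cell was through S phase, and it ran along separate courses at the 2 stages. In cells with a Repliscore of 30 to 40%, members were replicated at 2.63% on average in 7 8-cell cells (0.298 to 6.25%), against 37.6% in 4 4-cell cells (30.9 to 44.1%). At 50 to 60%, the values were 22.9% in 7 8-cell cells (11.5 to 40.1%) and 72.8% in 8 4-cell cells (65.2 to 87.4%). At 60 to 70%, they were 51.5% in 5 8-cell cells (32.8 to 77.2%) and 86.9% in 6 4-cell cells (80.6 to 94.5%). Cells of the 2 stages did not overlap in member percent in any of these 3 ranges. In the lowest range their Repliscores did not overlap either, with 30.1 to 37.4% in the 8-cell and 37.6 to 39.6% in the 4-cell cells, so the gap there includes a difference in position within S phase. Between 40 and 50% there were 9 8-cell cells, with a mean of 14.8%, and no 4-cell cell. A lower percent at the 8-cell stage in all 3 shared ranges was found for 694 members (68.8%), against 8.11% of kept bins.

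**Figure D1:**
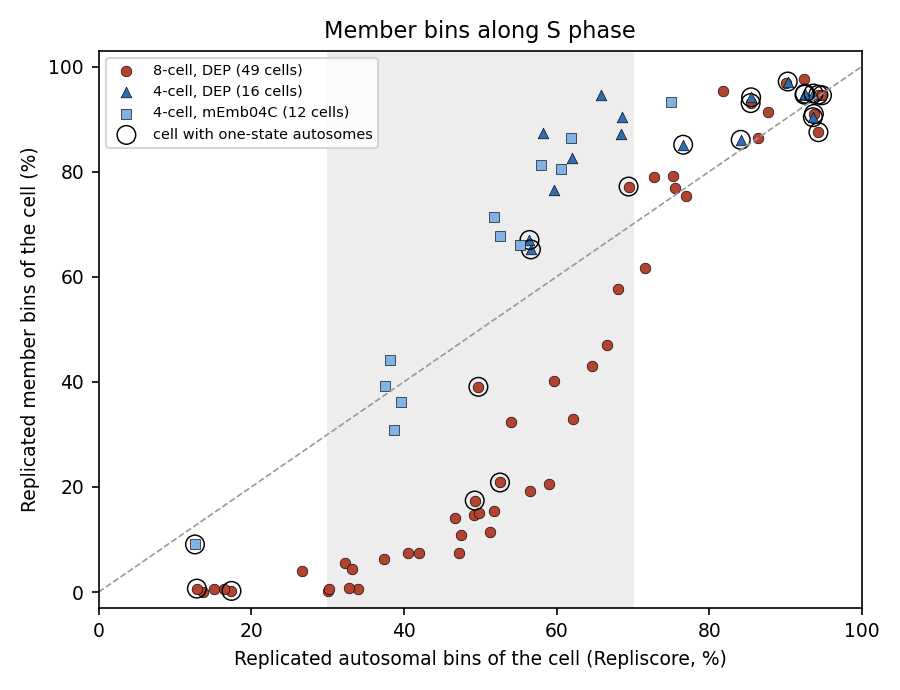
Percent of member bins replicated in each of the 77 cells (vertical axis) against the percent of all called autosomal bins replicated in that cell (horizontal axis), with the mid-S range shaded and equality dashed. Between 30 and 70% the 8-cell cells lie low, between 0.298 and 77.2%, the 4-cell cells lie between 30.9 and 94.5%, and above 80% the stages run together.

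A logistic curve through the cells of each stage placed the point at which a cell had replicated 50% of the member bins at a Repliscore of 65.2% in 8-cell cells and 43.97% in 4-cell cells. The difference was 21.2 points. The curves run through the mid-S cells that chose the bins, so the size of this difference is set in part by the choice and no error is given for it. The point was 62.1% in DEP_01_162 and 67.5% in DEP_01_164 8-cell cells, and 43.96% in mEmb04C 4-cell cells alone.

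The mean of every embryo with mid-S cells followed the direction of its stage, which the choice of bins from these same cells favours. The percent of member bins minus that of all kept bins in the same cells, averaged per embryo over its mid-S cells, had a lowest value of -37.2, a median of -29.6 and a highest value of -10.7 points in the 10 8-cell embryos. In the 9 4-cell embryos the lowest was 1.52, the median 15.01 and the highest 29.02 points. All 8-cell embryos were below 0 and all 4-cell embryos above it. Single cells went the other way: a cell of 8-cell embryo 1 was at 7.75 points, and cells of 4-cell embryos 11 and 13 at -7.82 and -3.48. The means were -28.2 ± 8.07 points in 8-cell embryos (SD, n = 10 embryos) and 14.7 ± 8.58 points in 4-cell embryos (SD, n = 9 embryos). For single bins the embryos were less uniform: every 8-cell embryo lay below every 4-cell embryo in 6 of 1008 members, against 0.0203% of kept bins.

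**Figure D2:**
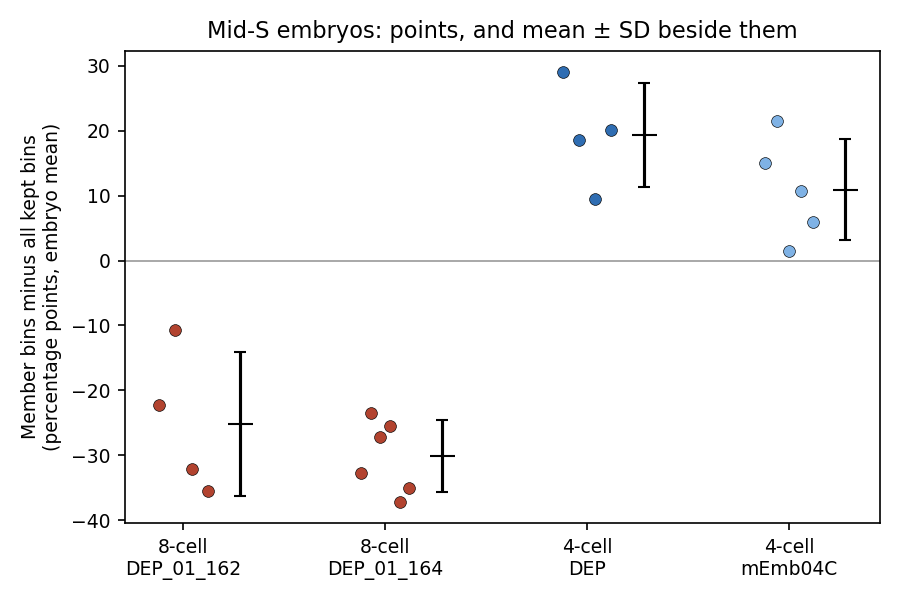
Replicated percent of member bins minus that of all kept bins, in percentage points, per embryo with mid-S cells (points) with mean and SD beside them, by stage and library title set. The 8-cell embryos lie between -37.2 and -10.7 and the 4-cell embryos between 1.52 and 29.02.

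The 2 sets of 4-cell cells stood at different positions in S phase, and their member values differed with them. Members were replicated in 81.8% of DEP and 60.4% of mEmb04C 4-cell cells on average, where all kept bins averaged 62.2% and 49.4%. Above the mean of the set lay 953 members (94.5%) in DEP cells, against 60.96% of kept bins, and 782 members (77.6%) in mEmb04C cells, against 51.1% of kept bins. Both sets were above their means for 734 members (72.8%), against 48.1% of kept bins. At the level of embryos, members exceeded kept bins by 19.3 ± 7.98 points in DEP (SD, n = 4) and by 10.9 ± 7.75 points in mEmb04C 4-cell embryos (SD, n = 5), a gap that was not tested. At a Repliscore of 50 to 60% the means over cells were close, 16.3 points in 4 DEP and 17.2 points in 4 mEmb04C cells, and at 60 to 70% they were 22.4 points in 4 DEP and 22.2 points in 2 mEmb04C cells. The remaining 4 mEmb04C cells lay at 30 to 40%, where no DEP cell was found, and averaged -0.919 points (-7.82 to 5.97). After subtraction of each set's mean, DEP and mEmb04C were within 20 points of each other for 616 members (61.1%, and 60.1% of kept bins). DEP was higher by more than 20 points for 303 members (30.1%, against 19.6% of kept bins), and mEmb04C was higher by more than 20 for 89 (8.83%, against 20.3% of kept bins). Across the 1008 members the percents of the 2 sets had a Pearson correlation of 0.188, against 0.781 across all kept bins. The choice narrows the range of the members, neighbouring bins are not independent, and each set holds 10 cells or fewer, so the coefficient is a description only.

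The 8-cell sets differed less. Members were replicated in 22.02% of DEP_01_162 and 19.1% of DEP_01_164 8-cell cells. Both were below their means for 923 members (91.6%, against 48.3% of kept bins), and the correlation across members was 0.528, against 0.925 across all kept bins. Relative to kept bins, members were at -25.1 ± 11.1 points in DEP_01_162 (SD, n = 4 embryos) and -30.2 ± 5.56 points in DEP_01_164 8-cell embryos (SD, n = 6 embryos). Both 8-cell sets lay below both 4-cell sets for 1004 of the 1008 members, against 19.7% of kept bins. The same cells chose the bins, so this count follows in large part from the choice.

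The choice of bins was also made in one pair of title sets and read in the pair that shares no cell with it. Bins chosen by the same threshold from DEP_01_162 8-cell against mEmb04C 4-cell cells numbered 1078, 3.64% of kept bins. In DEP_01_164 8-cell against DEP 4-cell cells, 360 of these (33.4%) again reached -35 points, against 10.9% of all kept bins, and 851 (78.9%) were below 0, against 49%. Their median there was -25.3 points. The reverse order chose 3226 bins, of which 360 (11.2%, against 3.64% of kept bins) reached the threshold in DEP_01_162 against mEmb04C and 2104 (65.2%, against 41.7%) were below 0. With the sets crossed, DEP_01_164 8-cell against mEmb04C 4-cell cells gave 1130 bins, 3.81% of kept bins. Of these, 389 (34.4%, against 8.33%) reached -35 points in DEP_01_162 8-cell against DEP 4-cell cells, and 1012 (89.6%, against 47.1%) were below 0 there, with a median of -27.1 points. The reverse of that order chose 2468 bins, of which 389 (15.8%, against 3.81%) reached the threshold and 1822 (73.8%, against 56.5%) were below 0. In all 4 directions the chosen bins were below 0 more often than kept bins in cells that had not chosen them. Of the chosen bins, 11.2 to 34.4% reached the threshold again. In every pair, however, the 8-cell set had the lower median Repliscore. The threshold favours bins with intermediate percents, which have more room to move with position in S phase. Kept bins include many near either end of the scale, with less room to move. How much of the excess over kept bins follows position in S phase was not tested. The DEP 4-cell cells carry both DEP titles, and neighbouring bins share calls, so no test over bins is given.

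Member bins occurred in runs. Members of 1 chromosome with at most 2 other bins between them were joined, which gave 389 clusters. A directly adjacent member was present for 842 of the 1008 bins (83.5%). Clusters of 3 or more bins numbered 154 and held 675 members (67.0%), 49 clusters had 5 or more bins, and 137 members stood alone. The median cluster had 2 members and spanned 160 kb, and the largest had 18 and spanned 1440 kb. Within clusters of 3 or more bins, all called bins of a cell had the same state in 76.4% of calls in 8-cell and 77.5% in 4-cell mid-S cells, so that neighbouring bins in a cell are largely 1 observation. Runs among other bins past a threshold were not measured, so the runs are not shown to be particular to members.

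The clusters were unevenly spread over chromosomes. Chromosome 7 had 126 members (7.50% of its kept bins), chromosome 8 had 99 (6.37%), chromosome 12 had 79 (5.54%), chromosome 5 had 93 (5.11%) and chromosome 4 had 92 (4.95%). Chromosomes 4, 5, 7 and 8 together held 410 members, 40.7% of all, with 23.3% of kept bins. Chromosomes 1, 3 and 17 had the lowest shares, with 32 members (1.34%), 28 (1.43%) and 19 (1.66%). Chromosome 7 was lower at the 8-cell stage as a whole: its kept bins averaged 48.3% in 8-cell and 62.2% in 4-cell mid-S cells, a difference of -7.50 points after subtraction of the stage means, the most negative of the 19 autosomes. Chromosome 5 had no such shift, at 1.21 points over its kept bins. Members were about as frequent near chromosome ends as kept bins were: 8.23% lay within 10 Mb of the last called bin of their chromosome, against 7.93% of kept bins. On chromosome X, which the choice left out, 39 of 1892 bins (2.06%) had a difference of -35 points or less with the autosomal stage means subtracted.

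**Figure D3:**
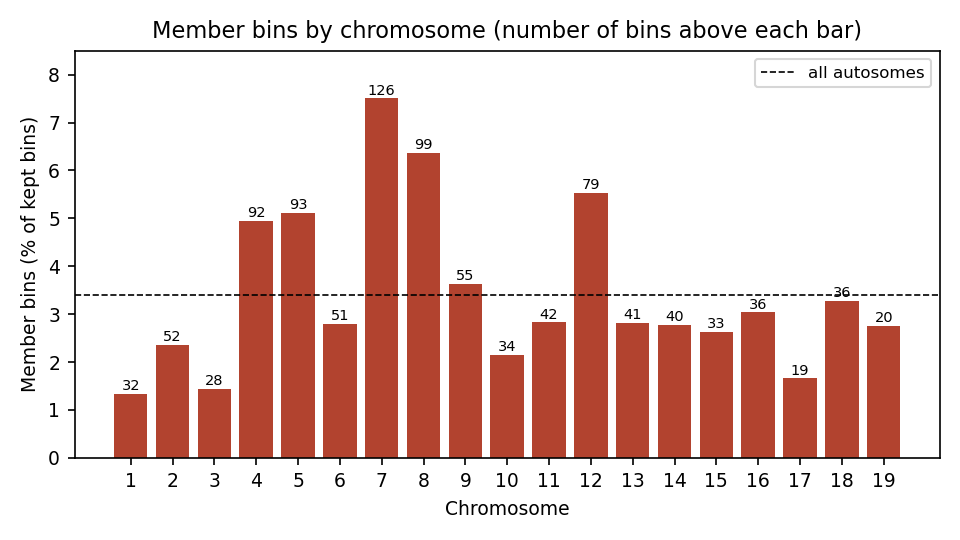
Member bins as a percent of the kept bins of each autosome (bars from 0), with the number of members above each bar and the share over all autosomes dashed. Chromosomes 7, 8, 12, 5 and 4 lie between 4.95 and 7.50%, and chromosomes 1, 3 and 17 between 1.34 and 1.66%.

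The largest cluster lay on chromosome 5 from 126400001 to 127840000 (mm9) and comprised 18 member bins in a row. Its bins were replicated in 18.3% of 8-cell calls and 83.3% of 4-cell calls. Of 28 mid-S 8-cell cells, 0 had replicated the whole cluster and 13 had replicated none of it, whereas of 16 mid-S 4-cell cells 10 had replicated all of it and 0 none. The 10 8-cell embryos had a lowest value of 2.78%, a median of 12.5% and a highest value of 72.2%, and the 8 4-cell embryos a lowest of 55.6%, a median of 88.9% and a highest of 100%. The ranges overlapped through 1 8-cell embryo. By title set the cluster stood at 31.5% in DEP_01_162 and 8.33% in DEP_01_164 8-cell cells, against 88.0% in DEP and 80.6% in mEmb04C 4-cell cells. The 400 kb to its left was replicated at 81.4% in 8-cell and 100% in 4-cell cells, and the 400 kb to its right at 67.9% in 8-cell and 80% in 4-cell cells. In 8-cell cells it was thus a valley between earlier flanks, while in 4-cell cells it lay below its left flank and slightly above its right one. About 1.5 Mb to the right of its centre, further member bins marked a second and smaller dip.

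**Figure D4:**
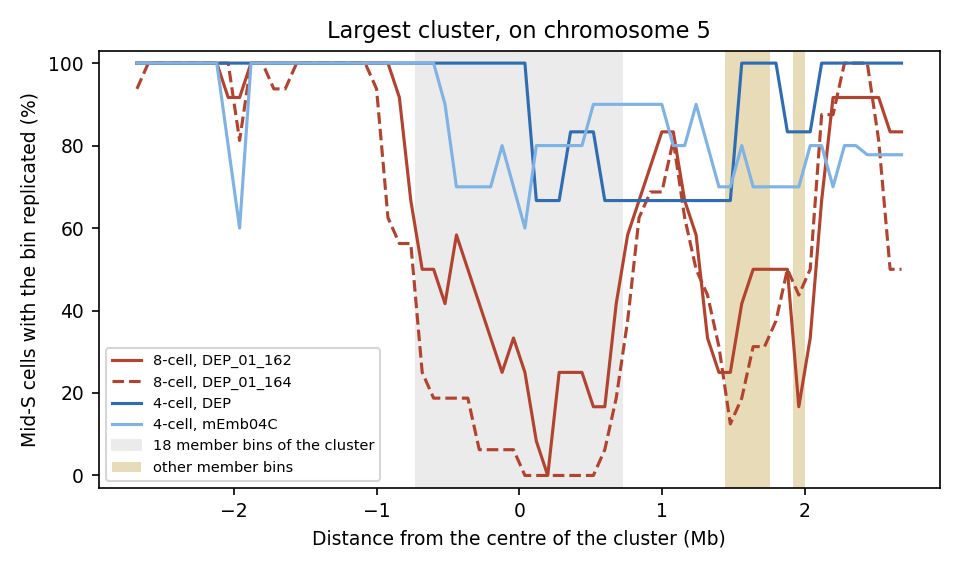
Percent of mid-S cells in which each bin was replicated (vertical axis) by distance in Mb from the centre of the largest cluster (horizontal axis), for the 2 8-cell and the 2 4-cell title sets, with member bins shaded. The 8-cell lines fall to 0% near the centre, and the 4-cell lines stay at 60% or more.

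Chromosome 8 carried the next largest cluster, from 120320001 to 121680000, with 15 members replicated at 11.2% in 8-cell and 62.6% in 4-cell cells. The embryos' lowest, median and highest values were 0, 10.2 and 40% at the 8-cell stage, against 26.7, 51.7 and 100% at the 4-cell stage, so the ranges overlapped. This cluster had flanks of 79.3 and 90% in 8-cell cells, against 82.2 and 84.4% in 4-cell cells, and was the only one of the 10 largest with both flanks earlier than itself by 15 points or more at both stages. A second cluster of this chromosome, from 16480001 to 17200000, had 8 members at 5.36% in 8-cell and 56.2% in 4-cell cells. It lay in late surroundings, with flanks of 6.43 and 13.7% in 8-cell cells, against 34.4 and 44.4% in 4-cell cells.

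Chromosome 4 held a pair of the 10 largest clusters. From 127280001 to 128080000, 10 members were replicated at 18.2% in 8-cell and 72.2% in 4-cell cells, and 17 of 28 8-cell cells had replicated none of them, against 3 of 18 4-cell cells. From 130560001 to 131280000, 9 members were replicated at 16.7% in 8-cell and 78.4% in 4-cell cells. In the second of these the embryos ranged from 0 to 44.4% (median 9.26%) at the 8-cell stage and from 50 to 100% (median 83.3%) at the 4-cell stage. It was the only one of the 10 largest clusters whose embryo ranges did not overlap. Of the 154 clusters of 3 or more bins, 5 had such ranges, in embryos whose cells had chosen the bins. Its flanks were early at both stages, at 94.3 and 86.4% in 8-cell cells and 94.4 and 88.9% in 4-cell cells.

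The clusters of chromosome 7 differed from each other. From 26880001 to 27600000, 9 members were replicated at 30.5% in 8-cell and 89.5% in 4-cell cells, and 3 of 26 8-cell cells had replicated all of them, against 15 of 18 4-cell cells. From 37360001 to 38160000, 10 members were replicated at 7.92% in 8-cell and 54.4% in 4-cell cells. In this second cluster 21 of 24 8-cell cells had replicated no member, and the 4-cell cells were divided, with 8 of 18 complete and 7 of 18 at none. Its 8-cell title sets were apart, at 22.5% in DEP_01_162 and 0.625% in DEP_01_164.

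On chromosome 5, 2 further clusters of 9 members lay from 111840001 to 112560000, at 21.03% in 8-cell and 76.4% in 4-cell cells, and from 130960001 to 131680000, at 30.6% in 8-cell and 80.6% in 4-cell cells. In the first of them the 8-cell embryos ranged from 0 to 50% with a median of 23.8%, and the 4-cell embryos from 0 to 100% with a median of 91.7%. The chromosome 2 cluster, from 171120001 to 172000000, had 10 members at 27.2% in 8-cell and 77.2% in 4-cell cells. In late-S cells, with a Repliscore over 70%, it stood at 86.7% in 15 8-cell cells, against 57.1% in 7 4-cell cells. Of the 10 largest clusters, 3 were higher and 7 lower in late-S 8-cell than in late-S 4-cell cells, among the 7 the cluster of 15 bins on chromosome 8, at 74.7% in 8-cell and 100% in 4-cell cells. Genes in these intervals are not named, since an annotation of mm9 was not used here.

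On average over clusters, bins from 0.32 to 2 Mb from the centre stood above the stage mean at both stages. The margin in 8-cell cells was small in places, with 49.6% at 2 Mb on the right against a stage mean of 48.7%. Nearer bins were below that mean in 8-cell cells, at 42.5 and 42.8% at 0.24 Mb on the left and right. Single clusters differed, and some lay in late surroundings. Averaged over the 389 clusters, the centre was replicated in 19.99% of 8-cell and 68.5% of 4-cell mid-S cells. At 0.4 Mb on the left the values were 54.2% in 8-cell and 64.9% in 4-cell cells, and at 0.4 Mb on the right 54.5% in 8-cell and 64.6% in 4-cell cells. The centred difference was -42.1 points at the centre, and -4.36 and -3.65 points at 0.4 Mb on the left and right. Across the 2 Mb on either side the 8-cell profile had a narrow trough, with values between 19.99 and 57.8%, and the 4-cell profile stayed between 56.7 and 68.5%. The width of the trough follows in part from the choice, which takes single bins past a threshold.

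**Figure D5:**
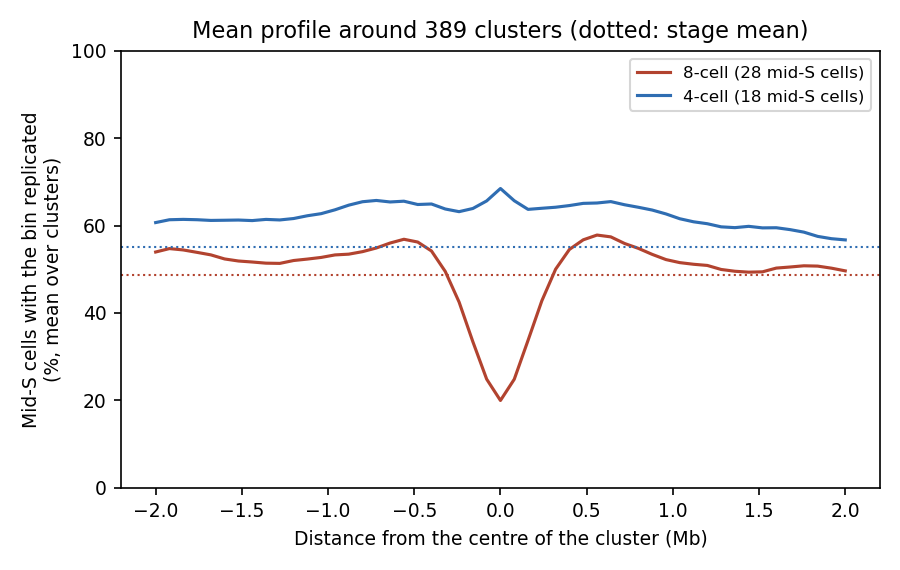
Mean percent of mid-S cells in which a bin was replicated (vertical axis) by distance in Mb from the centre of a cluster (horizontal axis), over 389 clusters, for 28 8-cell and 18 4-cell cells, with the stage means dotted. The 8-cell line falls to 19.99% at the centre, and the 4-cell line stands at 68.5% there.

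Flanks were classed from the 5 bins (400 kb) on each side as earlier or later than the cluster by 15 points or more, or within that distance. In 8-cell cells, 85 clusters had both flanks earlier, 200 had 1 flank earlier and 1 within 15 points, 72 had 1 earlier and 1 later, and 16 had both within. In 4-cell cells, 8 clusters had both flanks earlier, 43 had 1 earlier and 1 within, 127 had 1 earlier and 1 later, 125 had 1 later and 1 within, and 71 had both within. At both stages 15 clusters could not be classed. In 46 clusters both flanks were earlier at the 8-cell stage and both within 15 points at the 4-cell stage. Among the 10 largest, 7 had both flanks earlier in 8-cell cells, against 1 in 4-cell cells. In 4-cell cells the largest single class was thus a slope, with the cluster between an earlier and a later neighbour. In 8-cell cells the largest class was a cluster with 1 earlier and 1 similar neighbour. The choice takes bins low at the 8-cell relative to the 4-cell stage, which itself favours earlier flanks in 8-cell cells. Flanks of other kept bins were not classed, so these counts are no measure of a change in shape. The flanks of 244 of the 389 clusters were lower at the 8-cell stage on both sides, after subtraction of the stage means. Flank bins can lie just short of the threshold and share calls with the members, and other windows were not compared.

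Cells outside mid-S took no part in the choice, but many of their embryos did through other cells: 7 of the 8 8-cell and 1 of the 5 4-cell embryos with late-S cells, and 2 of the 4 8-cell and 0 of the 1 4-cell embryos with early-S cells. In late S, with a Repliscore over 70%, most members were replicated at both stages, at a median over bins of 86.7% in 15 8-cell cells and 100% in 9 4-cell cells. Members minus kept bins had a lowest value of -6.86, a median of 2.97 and a highest value of 13.6 points in the 8 8-cell embryos. In the 5 4-cell embryos the values were -1.05, 2.20, 5.25, 7.73 and 18.1 points. The ranges overlapped. The means were 2.74 ± 6.23 points in 8-cell embryos (SD, n = 8) and 6.45 ± 7.31 points in 4-cell embryos (SD, n = 5), a difference of -3.72 points that did not pass the threshold (two-sided exact permutation test over 1287 splits of embryos, p = 0.34). Without the 4-cell embryo at 18.1, the only mEmb04C embryo in late S, the difference was -0.796 points within the later batch. With the 2 DEP title sets as blocks, an alternative chosen after seeing the data, the later batch gave -2.57 points (8 8-cell and 4 4-cell embryos, two-sided exact permutation test within title sets, p = 0.36). Autosomes in 1 state were present in 5 of the 15 late-S 8-cell and 8 of the 9 late-S 4-cell cells, and without these cells the difference was -13.5 points, with 1 4-cell embryo left and no test.

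The late-S cells nearest to mid-S were fewer still. With a Repliscore of 70 to 80%, members were replicated at 74.4% in 5 8-cell cells (61.8 to 79.2%), against 85.1 and 93.2% in the 2 4-cell cells. The difference of embryo means after subtraction was -14.2 points in 3 8-cell and 2 4-cell embryos, a range chosen after seeing the data and too few embryos for an exact test to pass the threshold. From 80 to 90% the means were 91.6% in 4 8-cell and 90.1% in 2 4-cell cells, and from 90 to 100% they were 93.7% in 6 8-cell and 94.4% in 5 4-cell cells. In early S, with a Repliscore under 30%, members minus kept bins were -22.6, -16.5, -14.5 and -12.8 points in the 4 8-cell embryos and -3.55 points in the 1 4-cell embryo. The members themselves were replicated at 3.97, 0.408, 0.497 and 0.384% in these 8-cell embryos, near the floor, and at 9.06% in the 4-cell embryo. The Repliscores were 26.7, 16.9, 15.1 and 13.3%, against 12.6%. With members near the floor, the size of each 8-cell difference is bounded by the embryo's own Repliscore. The 8-cell embryo at 13.3% and the 4-cell embryo at 12.6% had members at 0.384 and 9.06%. No test could be made there, and the single 4-cell cell had 14 autosomes in 1 state.

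Bin by bin, no member passed a test in the cells outside mid-S. With embryo means of 10 8-cell and 6 4-cell embryos and the embryo's Repliscore as a term, limma called 0 of 29595 bins after Benjamini-Hochberg adjustment (0.0%), with a smallest adjusted p of 0.235. Early-S and late-S cells of 1 embryo were averaged, which mixes them in 8-cell embryos 3 and 10. The mean Repliscore entered as a linear term only, which limits this fit. At an unadjusted p under 0.05, 32 members (3.17%) were later at the 8-cell stage, against 4.39% of all bins. The fitted difference was below 0 for 799 members (79.3%), against 52.8% of all bins, with a median of -5.59 points over members and -0.40 points over all bins. In late-S cells alone limma called 5 of 23117 bins (0.0216%), of which 0 were members. Of the 836 members tested there, 570 (68.2%) had a fitted difference below 0, against 54.4% of all bins. At an unadjusted p under 0.05, 24 of these 836 members (2.87%) were later, against 4.99% of all bins, and 20 members were earlier. In either direction 10.2% of all bins stood at that level. In the later batch alone, with the title set as a further term (10 8-cell and 4 4-cell embryos, chosen after seeing the data), limma called 15 of 28957 bins (0.0518%), again with 0 members among them. There the fitted difference was below 0 for 561 members (55.7%), against 45.3% of all bins, with a median of -2.39 points over members and 1.16 points over all bins. At an unadjusted p under 0.05 in that fit, 15 members (1.49%) were later, against 5.22% of all bins. More members, 28, were earlier at that level, which 9.98% of all bins reached in either direction. By plain percents in late S, 596 members (59.1%) were below 0 after subtraction of the stage means, against 46.3% of kept bins, and 131 (12.996%) were at -20 points or less, against 14.5%.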

How the data were processed

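Per the labels' protocols, blastomeres were isolated 1 by 1 and sequenced after whole-genome amplification. The authors deposited a binary state for each 80-kb bin and cell (1, -1 or 0, without a unit). The submitters' processing notes name the build mm9, and the aligner is not given in the sources used here. A state of 1 was taken as replicated, -1 as not replicated and 0 as not called. With that reading, the replicated percent of each cell's called autosomal bins matched the authors' deposited Repliscore, a percent, to within 4.98e-09 points. The authors' noise score per cell (median absolute deviation), per the file headers, was tabulated only, with a median of 0.615 in mid-S cells of each stage. The embryo and the batch come from the authors' cell annotation. Profile columns matching no sample numbered 0.

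The members, lists and tests were chosen with earlier results of these data known. Named are the 10 clusters with the most members, the 5 bins with the most negative difference, and the 5 bins on either side of the threshold. Genes were not named, as the annotation at hand is of another build. Embryos are the replicates, and the tests set the stage difference against the variation between embryos. The permutation p is the share of splits of embryos with a difference at least as large. Late-S embryo means were compared by an exact permutation test. Early S could not be tested, so the planned adjustment over both did not apply, and p-values of alternatives are unadjusted. Embryo means per bin outside mid-S were tested with limma 3.58.1 (R 4.3.3), for bins with at least 3 embryos per stage. Other steps used numpy 2.4.6, scipy 1.17.1, pandas 2.3.3 and matplotlib 3.10.9 in Python 3.11.15. Alternatives covered the mid-S range, minima, centring, threshold, weights, title sets, cells with one-state autosomes and each embryo left out.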

Additional observations from a re-analysis of the deposited data

Results flagged for a closer look

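Over the 10 largest clusters and the summary values, 25 groups of 4 to 10 embryos were checked for a value far from the others, and 3 were found. The check marks about 1 in 20 groups by chance for normally distributed values. These are percents of chosen clusters, bounded and often tied at 0, and the rate for such values was not measured. In the chromosome 5 cluster of 18 bins, 8-cell embryo 4 stood at 72.2%, far above the other 8-cell embryos. In the chromosome 7 cluster from 37360001 to 38160000, 8-cell embryo 1 stood at 60%, against a median of 0% over the 8-cell embryos. In the chromosome 2 cluster, 4-cell embryo 14 stood at 0%, against a median of 90% over the 4-cell embryos. Embryo 14 gave 1 mid-S cell, with a Repliscore of 38.2%.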

How the results depend on the processing

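The count of 1008 members was 1107 with a mid-S range of 35 to 65% (with lower minima of cells) and 862 with 25 to 75%, and 807 and 819 members were in these lists. It was 1902 without centring, 1649 at a threshold of -30 points, 579 at -40 and 2781 with DEP 4-cell cells only (855 members among them), which is the later batch alone. With mEmb04C 4-cell cells only it was 883 (602 members), and without cells with one-state autosomes 1258 (918 members). With equal weight for each 10-point range of Repliscore held by both stages, an alternative chosen after seeing the data, it was 734 (623 members). Leaving out each embryo gave 860 to 1309 bins, with 75.4 to 95.4% of members among them.

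The late-S difference of -3.72 points lay between -5.59 and -0.796 when each embryo was left out (exact permutation p between 0.163 and 0.794). It was -13.5 without cells with one-state autosomes and -13.6 over embryos with no mid-S cell, which leaves 1 8-cell embryo with a single late-S cell, against 4 4-cell embryos. Neither could be tested, and the cause was not tested. The early-S difference of -13.1 points was -7.75 without subtraction of the cell's own percent, and -14.3 to -11.1 with each embryo left out. It could not be computed without cells with one-state autosomes or with DEP 4-cell embryos only. Outside mid-S limma called 0 bins, and with late-S cells only it called 5, and with the later batch alone and title set as a term 15.

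No paired analysis was possible because no label pairs single 8-cell with single 4-cell embryos, and the replicate numbers follow accession order. Title sets of the later batch were used as blocks instead, with a late-S difference of -2.57 points. Few cells, 1 4-cell embryo in early S, calls without reads, and a batch without 8-cell cells limit these values. For mEmb04C, batch and title set cannot be told apart.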
